A study of Saccharomyces cerevisiae with 15 samples.

Results

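The zinc regulon of budding yeast is the set of genes that the activator Zap1 turns on when cells run short of zinc, with the transporters that take zinc up, store it and release it. The genes followed here were ZAP1, ZRT1, ZRT2, ZRT3, ZRC1, IZH1, IZH2, IZH4, FET4 and ADH4. Every probe set whose gene symbol was 1 of these 10 was taken, which gave 14 probe sets. They were 10 of the 5656 genes read by a probe set that matched only 1 gene symbol, and 14 of the 9275 probe sets tested. ZRT1 had 4 probe sets, ADH4 had 2, and each of the other genes had 1.

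RNA was measured on 15 Affymetrix Yeast Genome S98 arrays, 3 for each of 5 groups. All groups were Saccharomyces cerevisiae BY4741 of mating type MATa, shaken at 30 °C in 12 ml of synthetic medium lacking uracil with 2% galactose, and taken at an optical density near 1. In the ume1 group (ume1Δ), the mbf1 group (mbf1Δ) and the bna4 group (bna4Δ), strains lacking 1 gene expressed Htt103Q, a galactose-inducible fragment of mutant human huntingtin with 103 glutamines. The Htt103Q group expressed the same fragment with no such deletion, and the Htt25Q group, which served as the control, expressed the fragment with 25 glutamines. The series describes the 3 deletions as suppressors of Htt103Q. Strains with a deletion and Htt25Q were not analysed here, so what a deletion does with the short repeat is not known from these arrays. The labels do not say whether a deletion strain was 1 clone or whether the 3 arrays of a group came from separate cultures. Each p-value therefore measures only the spread between these samples. That spread is 1 estimate per probe set over all 15 arrays, including groups outside the comparison.

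Zap1 binds zinc and loses its ability to activate when zinc is plentiful. In cells short of zinc it raises its own gene, the plasma membrane importers and the vacuolar exporter, and it also acts on genes for membrane proteins, lipid enzymes and alcohol dehydrogenases. Several of its targets answer to other signals as well: FET4 is repressed by Rox1 in air and induced by the iron regulator Aft1, and some IZH genes respond to fatty acids.

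The deposited values were log2 intensities and fell into 2 processing sets that differed in their lowest value and their medians. The first set held the ume1, Htt103Q and Htt25Q arrays (lowest value 2.06, array medians 6.35 to 6.47) and the second the mbf1 and bna4 arrays (lowest value 2.02, array medians 6.78 to 6.84). Levels are given for all 5 groups after quantile normalization, but the tests stay within a set, since strain and set cannot be told apart across them. The deletion labels matched the arrays, since UME1 averaged 2.34 ± 0.31 in the ume1 group, MBF1 2.09 ± 0.034 in the mbf1 group and BNA4 2.12 ± 0.13 in the bna4 group (SD, n = 3 each), near the lowest value of the table. The controls of 2 arrays stood apart. In Htt25Q replicate 1 the 3′ actin control exceeded the 5′ one by 2.48 on the log2 scale, against −0.33 to 0.31 on the other 14 arrays. In ume1 replicate 1 the 18S ribosomal RNA controls averaged 10.39 as deposited, against 6.49 and 7.30 on the other ume1 arrays and 5.90 to 8.08 on the Htt103Q and Htt25Q arrays. The members' values without these arrays are given after the 4 comparisons. Each array reports the RNA of a whole culture, in which a change in every cell and a change in the share of cells expressing a gene cannot be told apart.

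The members did not move as a block. The zinc transporter genes and ZAP1 mostly stayed within the spread of their arrays, while the IZH genes separated the groups. IZH1 was lower in Htt103Q than in Htt25Q cells and higher in ume1 than in Htt103Q cells, IZH4 was higher in ume1 than in either of the other groups of its set, and IZH1, IZH2 and IZH4 were all lower in mbf1 than in bna4 cells. A probe set was called when its Benjamini-Hochberg adjusted p from limma, over all 9275 probe sets of a comparison, was under 0.05.

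IZH1, IZH2 and IZH4 encode membrane proteins of the progestin and adipoQ receptor family, named for their effect on zinc homeostasis, and Zap1 raises IZH1 and IZH2 in zinc-poor cells. IZH1 (YDR492W) read 9.60, 9.56 and 9.47 log2 units in the ume1 arrays, 8.50, 8.18 and 8.02 in the Htt103Q arrays and 9.35, 9.34 and 9.53 in the Htt25Q arrays. It read 9.17, 9.20 and 8.87 in the mbf1 arrays, against 10.04, 10.11 and 9.97 in the bna4 arrays. Every Htt103Q array lay below every other array of the 15, while the ume1 and Htt25Q arrays overlapped. In Htt103Q against Htt25Q cells, IZH1 fell by 1.17 on the log2 scale (SE 0.12, 2.25-fold, limma adjusted p = 3.65e-04). In ume1 against Htt103Q cells it was higher by 1.31 (SE 0.12, 2.47-fold, adjusted p = 1.43e-04). The direct difference of ume1 from Htt25Q cells was 0.13, with a 95% interval of −0.13 to 0.40 and an adjusted p of 0.525. Those 3 comparisons share arrays, the Htt103Q arrays standing in 2 of them, and are not independent of each other. In mbf1 against bna4 cells IZH1 fell by 0.96 (SE 0.12, 1.95-fold, adjusted p = 4.79e-04), with no overlap of the arrays.

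IZH4 (YOL101C), which is also a target of the fatty acid regulator Mga2, gave the largest change among the 14 probe sets. Its log2 signal was 7.69, 7.57 and 7.76 in the ume1 arrays, 6.30, 6.14 and 6.07 in the Htt103Q arrays and 6.92, 6.39 and 6.47 in the Htt25Q arrays. It was 5.82, 5.82 and 6.14 in the mbf1 arrays and 8.48, 8.45 and 8.34 in the bna4 arrays. Neither pair that involves the ume1 group overlapped, and the mbf1 and bna4 arrays were more than 2 log2 units apart. IZH4 was lower by 2.50 in mbf1 than in bna4 cells on that scale (log2 fold change −2.50, SE 0.14, 5.65-fold, adjusted p = 1.18e-06). It was higher in ume1 than in Htt103Q cells by 1.50 (SE 0.14, 2.83-fold, adjusted p = 1.43e-04) and higher than in Htt25Q cells by 1.08 (SE 0.14, 2.11-fold, adjusted p = 7.38e-04). Its value in Htt103Q against Htt25Q cells, −0.42 (SE 0.14), did not pass (adjusted p = 0.128), although the arrays did not overlap.

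IZH2 (YOL002C), the receptor for the plant protein osmotin in yeast, was low in both Htt103Q-expressing groups of the first set. Its log2 signal was 7.58, 7.90 and 8.09 in the ume1 arrays, 7.85, 7.86 and 7.59 in the Htt103Q arrays and 8.92, 8.15 and 8.70 in the Htt25Q arrays. The Htt25Q arrays lay above all the others of the set, though its replicate 2 did so by a small margin. IZH2 fell by 0.83 in Htt103Q against Htt25Q cells (SE 0.19, 1.77-fold, adjusted p = 0.0378) and by 0.74 in ume1 against Htt25Q cells (SE 0.19, 1.66-fold, adjusted p = 0.0427). Between ume1 and Htt103Q cells it differed by 0.09, with a 95% interval of −0.34 to 0.52 (adjusted p = 0.959). In the second set IZH2 was 7.82, 7.89 and 8.16 in the mbf1 arrays, against 8.96, 8.93 and 8.71 in the bna4 arrays, and it fell by 0.91 with no overlap (SE 0.19, 1.88-fold, adjusted p = 0.0118). The call in Htt103Q against Htt25Q cells was lost without Htt25Q replicate 1 or 3 or any single Htt103Q array (adjusted p of 0.0729 to 0.140), that in ume1 against Htt25Q cells without Htt25Q replicate 1 or 3 or ume1 replicate 1 or 2 (0.0919 to 0.148), and that in mbf1 against bna4 cells without mbf1 replicate 1 (0.0509). IZH2 thus differed from IZH1 and IZH4 in ume1 against Htt103Q cells, where their intervals (1.04 to 1.57 for IZH1, 1.198 to 1.80 for IZH4) do not overlap its own. That difference between genes was not itself tested.

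**Figure D1:**
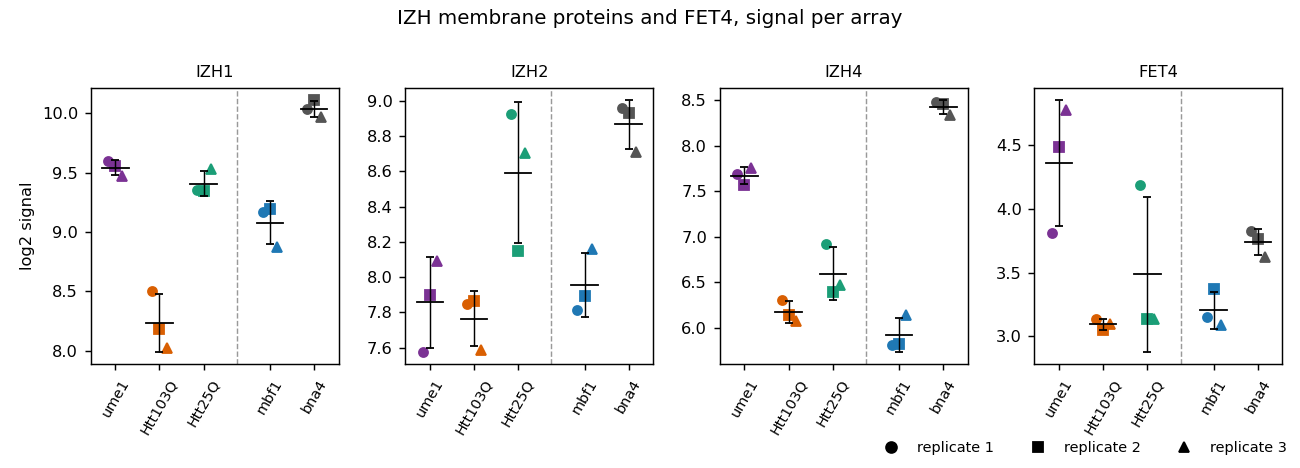
Log2 signal (vertical axis, quantile normalized) of IZH1, IZH2, IZH4 and FET4 on every array, by group (horizontal axis). Points are arrays with the marker giving the replicate number, horizontal lines are group means, bars are SD (n = 3), and the dashed line parts the 2 processing sets. The Htt103Q arrays of IZH1 lie at 8.02 to 8.50, below every other array, and the bna4 arrays of IZH4 at 8.34 to 8.48, above every other array.

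FET4 (YMR319C), a low-affinity transporter of iron that also carries zinc and copper, gave a weak signal throughout. It read 3.81, 4.49 and 4.77 log2 units in the ume1 arrays, 3.13, 3.05 and 3.10 in the Htt103Q arrays and 4.18, 3.14 and 3.14 in the Htt25Q arrays. The ume1 arrays lay above the Htt103Q arrays, but Htt25Q replicate 1 fell among them. FET4 was higher in ume1 than in Htt103Q cells by 1.26 (SE 0.28, 2.40-fold, adjusted p = 0.0425), a call lost without any single Htt103Q array or without ume1 replicate 2 or 3 (adjusted p of 0.0842 to 0.143). In ume1 against Htt25Q cells its 0.87 (SE 0.28) missed the threshold (adjusted p = 0.0895). It read 3.15, 3.37 and 3.09 in the mbf1 arrays and 3.83, 3.76 and 3.62 in the bna4 arrays, which did not overlap, and its difference of −0.53 (SE 0.28) was not called (adjusted p = 0.329).

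ZAP1 (YJL056C), the activator itself, was not called in any of the 4 comparisons. Its log2 signal was 6.78, 6.15 and 5.95 in the ume1 arrays, 5.94, 5.10 and 5.71 in the Htt103Q arrays and 6.21, 5.65 and 5.93 in the Htt25Q arrays. The lowest ume1 array exceeded the highest Htt103Q array by about 0.01, and the difference of 0.71 (SE 0.24) had an adjusted p of 0.196. In Htt103Q against Htt25Q cells the difference was −0.35 (SE 0.24, adjusted p = 0.490). In the second set ZAP1 averaged 5.54 ± 0.11 in mbf1 and 5.64 ± 0.025 in bna4 cells (SD, n = 3 each), a difference of −0.10 with an adjusted p of 0.986. Those arrays did not overlap, though narrowly, with the highest mbf1 array at 5.607 and the lowest bna4 array at 5.612.

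ZRT1 (YGL255W), the high-affinity zinc importer of the plasma membrane, was the member whose replicates spread most, and its 4 probe sets gave different patterns. On probe set 5258_at, which unlike 2252_g_at and 2253_s_at carries no manufacturer's suffix for shared or less specific probes, the log2 signal was 10.09, 11.13 and 10.84 in the ume1 arrays. It was 11.10, 9.08 and 10.58 in the Htt103Q arrays and 11.65, 10.16 and 9.71 in the Htt25Q arrays. The 3 groups overlapped, and the Htt103Q minus Htt25Q difference of −0.25 had a 95% interval of −1.48 to 0.97 (adjusted p = 0.907). Without Htt25Q replicate 1 the difference was 0.32, with the opposite sign and an interval of −0.82 to 1.46 (adjusted p = 0.988). The SD of 1.05 in the Htt103Q group was exceeded by 0.388% of all probe sets, and those of the probe sets 2252_g_at (1.12) and 2253_s_at (1.195) by 0.291% and 0.248%. In the ume1 group the SD of 5258_at was 0.54, in the mbf1 group 0.29 and in the bna4 group 0.045.

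Probe set 2252_g_at of ZRT1 was called in 2 comparisons. It read 11.38, 11.36 and 10.71 in the ume1 arrays, 10.86, 8.66 and 10.13 in the Htt103Q arrays and 8.94, 9.71 and 9.20 in the Htt25Q arrays. The ume1 arrays lay above the Htt25Q arrays without overlap, by 1.87 on average (SE 0.48, 3.66-fold, adjusted p = 0.0367), and overlapped the Htt103Q arrays. In the second set it read 9.52, 8.68 and 8.67 in the mbf1 arrays, against 7.51, 7.17 and 7.19 in the bna4 arrays, higher by 1.67 (SE 0.48, 3.18-fold, adjusted p = 0.0480). The first of these calls was lost without Htt25Q replicate 1 or 3 or ume1 replicate 1 or 2 (adjusted p of 0.0713 to 0.114), and the second without any single array of either group (0.0716 to 0.167). Probe set 2253_s_at moved in the same direction there, at 7.11, 6.27 and 6.06 in the mbf1 arrays and 5.03, 4.79 and 4.34 in the bna4 arrays, but its 1.76 (SE 0.54) missed the threshold (adjusted p = 0.0635). On 5258_at the mbf1 arrays (8.22 to 8.79) also lay above the bna4 arrays (7.81 to 7.89), with a difference of 0.64 that was not called (adjusted p = 0.640). The remaining probe set, 2251_at, was dim, averaging 3.33 to 4.09 over the 5 groups, and was lowest in the ume1 group, where 2252_g_at and 2253_s_at were highest.

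**Figure D2:**
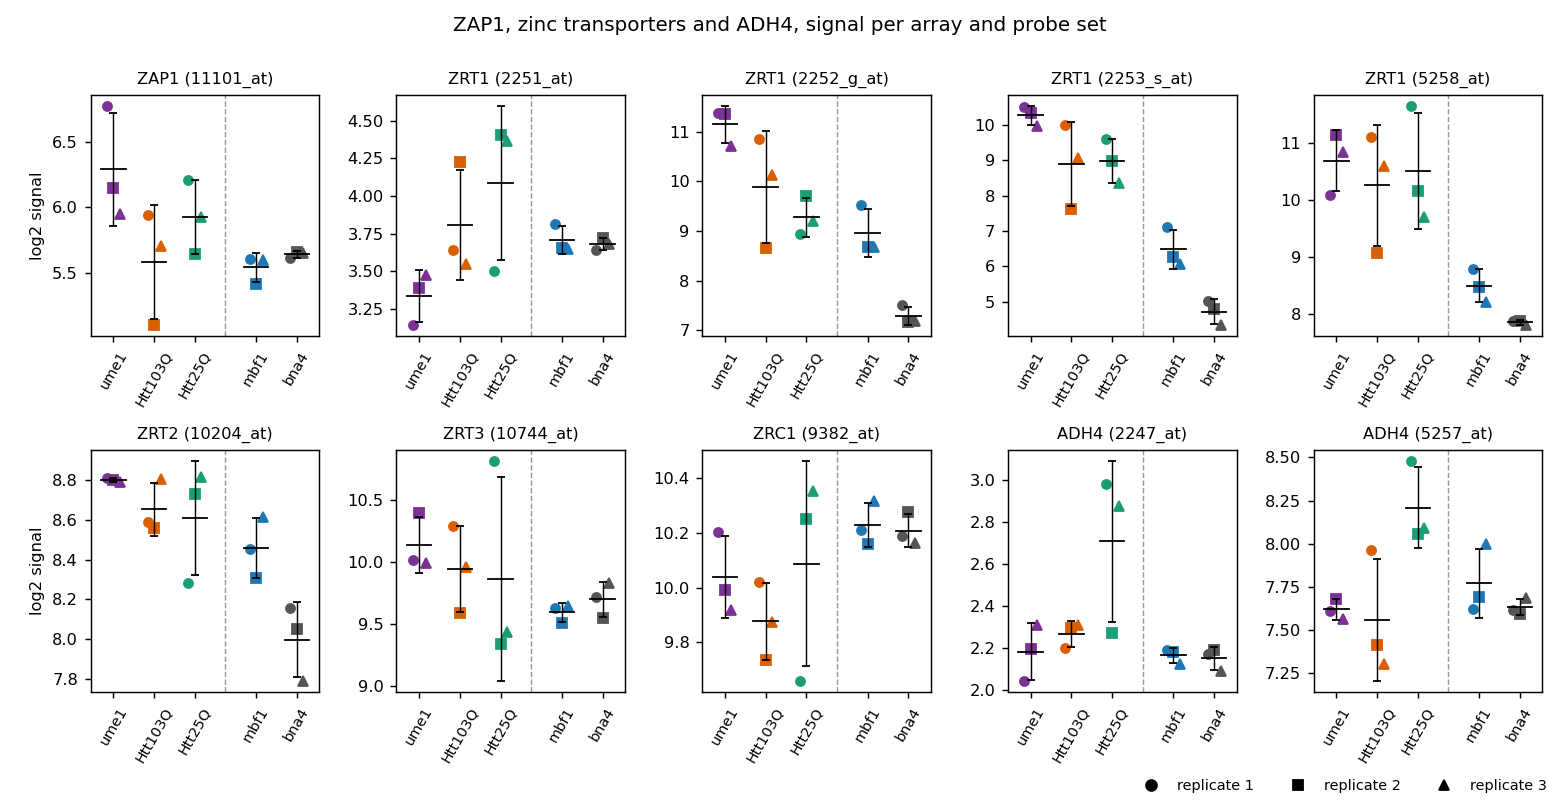
Log2 signal (vertical axis, quantile normalized) of ZAP1, the probe sets of ZRT1, and ZRT2, ZRT3, ZRC1 and ADH4 by group (horizontal axis). Points are arrays, horizontal lines are group means and bars are SD (n = 3), with the dashed line between the processing sets. Probe set 5258_at of ZRT1 spans 9.08 to 11.10 in the Htt103Q arrays and 9.71 to 11.65 in the Htt25Q arrays.

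ZRT2, ZRT3 and ZRC1 were not called in any of the 4 comparisons. ZRT2 (YLR130C), the low-affinity importer that Zap1 represses in severe shortage, averaged 8.80 ± 0.0094 in ume1, 8.65 ± 0.13 in Htt103Q and 8.61 ± 0.29 in Htt25Q cells (SD, n = 3 each). Its largest difference was in the second set, with 8.45, 8.31 and 8.61 in the mbf1 arrays and 8.15, 8.05 and 7.79 in the bna4 arrays, a difference of 0.46 without overlap (SE 0.14, adjusted p = 0.0652). ZRT3 (YKL175W), which releases zinc held in the vacuole, averaged 10.13 ± 0.23 in ume1, 9.94 ± 0.35 in Htt103Q and 9.86 ± 0.82 in Htt25Q cells. ZRC1 (YMR243C), which loads zinc into the vacuole, stayed within a range of means of 9.88 to 10.23 over the 5 groups.

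ADH4 (YGL256W) encodes an alcohol dehydrogenase made in zinc-poor cells. On probe set 5257_at it read 7.61, 7.68 and 7.56 in the ume1 arrays, 7.96, 7.41 and 7.30 in the Htt103Q arrays and 8.48, 8.05 and 8.09 in the Htt25Q arrays. Both Htt103Q-expressing groups lay below the Htt25Q arrays without overlap, and neither difference was called, at −0.65 (SE 0.17, adjusted p = 0.0553) for Htt103Q and −0.59 (SE 0.17, adjusted p = 0.0569) for ume1. The other probe set of ADH4, 2247_at, lay near the lowest value in every group (means of 2.15 to 2.71), and no fold change is given for it. ADH4 and ZRT1 are neighbours on chromosome VII of the R64 assembly, with 1 annotated gene, SUT532, between them, and neither probe set of ADH4 was called in any of the 4 comparisons.

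In Htt103Q against Htt25Q cells, 0 of the 14 probe sets were called higher and 2 lower (IZH1 and IZH2), where 2.06% of all 9275 probe sets were called higher and 2.38% lower. At an unadjusted p under 0.05, 5 were lower, both ADH4 probe sets among them, and still 0 higher. Many probe sets passed that cutoff: an unadjusted limma p of 0.047 ranked 1569 of all 9275, both directions together. The median log2 fold change of the 14 was −0.31, beside a median of 0 over all probe sets. In ume1 against Htt103Q cells 3 of 14 were called higher (IZH1, IZH4 and FET4) and 0 lower. The backgrounds were 1.60% and 1.00%, and the member median was 0.31. At an unadjusted p under 0.05 the counts were 6 and 0, where an unadjusted limma p of 0.048 ranked 1216 of 9275. Both 2252_g_at and 2253_s_at of ZRT1 were among the 6. In ume1 against Htt25Q cells 2 were called higher (IZH4 and 2252_g_at of ZRT1) and 1 lower (IZH2), with backgrounds of 4.18% and 3.68% and a member median of 0.19. There 4 were higher and 4 lower at an unadjusted p under 0.05, where an unadjusted limma p of 0.041 ranked 1999 of 9275. In mbf1 against bna4 cells 1 was called higher (2252_g_at of ZRT1) and 3 lower (IZH1, IZH2 and IZH4), with backgrounds of 5.74% and 4.81% and a member median of 0.02. Here the unadjusted cutoff gave 3 higher and 3 lower, where an unadjusted limma p of 0.048 ranked 1935 of 9275. The members were chosen with earlier results of these arrays known, so these counts describe them and are not a test of the regulon.

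**Figure D3:**
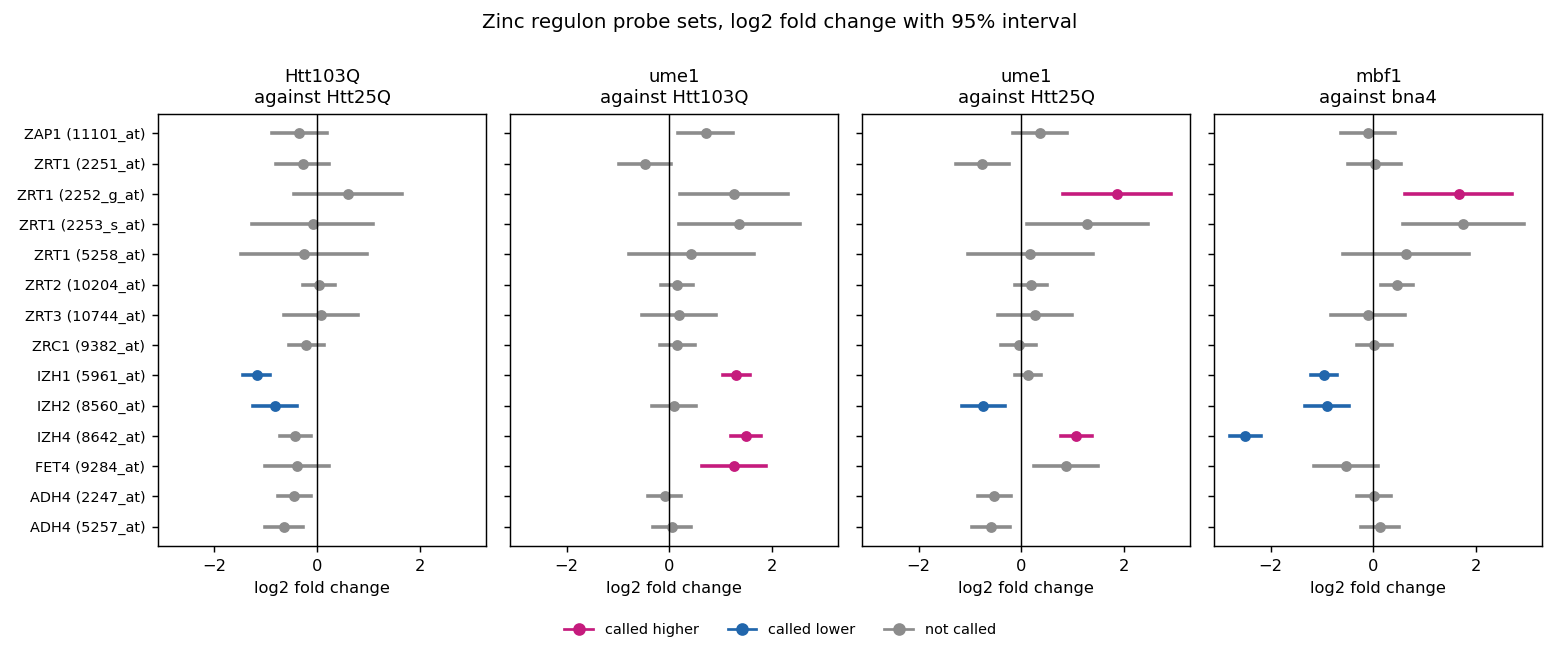
Log2 fold change of each of the 14 probe sets in the 4 comparisons (first-named group over the second), with 95% intervals from limma, coloured where the adjusted p was under 0.05 and grey otherwise. IZH4 spans −2.50 in mbf1 against bna4 to 1.50 in ume1 against Htt103Q, and the intervals of the 3 brighter probe sets of ZRT1 are the widest.

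Leaving out Htt25Q replicate 1 changed which members were called. In Htt103Q against Htt25Q cells 2 of 14 stayed called lower and 0 higher (2.79% and 2.58% of all probe sets), but the second was another gene: IZH1 fell by 1.201 (adjusted p = 0.0011) and ZRC1 by 0.42 (adjusted p = 0.0355), while IZH2, at −0.66, no longer passed (adjusted p = 0.0935). In ume1 against Htt25Q cells 3 of 14 were then called higher and 1 lower (5.27% and 4.12% of all). IZH4 was higher by 1.24 (adjusted p = 8.00e-05), FET4 by 1.22 (adjusted p = 0.00656) and ZRT3 by 0.74 (adjusted p = 0.0330), and 2251_at of ZRT1 was lower by 1.05, as a log2 fold change of −1.05 (adjusted p = 0.00424). IZH2 (−0.57, adjusted p = 0.109) and 2252_g_at of ZRT1 (1.70, adjusted p = 0.0878) were lost.

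The values that were not called in either fit moved as well. In Htt103Q against Htt25Q cells and without that array, IZH4 was at −0.25 (adjusted p = 0.265), ZAP1 at −0.21 (0.922), ADH4 on 5257_at at −0.52 (0.141) and FET4 at −0.043 (adjusted p = 1). ZRT3 was at 0.56 (0.142), and ZRT2 turned to −0.12 and 2253_s_at of ZRT1 to 0.23 (adjusted p = 0.801 and 1). The member median was then −0.23. In ume1 against Htt25Q cells without the array, ADH4 on 5257_at was at −0.46 (adjusted p = 0.142), ZAP1 at 0.51 (0.296), IZH1 at 0.10 (0.731) and 5258_at of ZRT1 at 0.75 (0.436), and the member median was 0.31.

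Without ume1 replicate 1, IZH1 (1.28, adjusted p = 9.26e-04), IZH4 (1.49, adjusted p = 9.01e-04) and FET4 (1.53, adjusted p = 0.0172) stayed higher in ume1 than in Htt103Q cells. Against Htt25Q cells IZH4 stayed higher (1.07, adjusted p = 0.00368) and FET4 was also called higher (1.14, adjusted p = 0.0384). The calls of 2252_g_at of ZRT1 and of IZH2 in that comparison were lost, as given above.

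Htt25Q replicate 1 lay above both other Htt25Q arrays on 9 of the 14 member probe sets and below both on 4. Its ZRT3 value was 10.81, against 9.34 and 9.44 on the other Htt25Q arrays, and its ZRC1 value was 9.66, against 10.25 and 10.35. ZPS1, a secreted protein gene strongly induced by zinc shortage, read 12.21 there and 7.28 and 6.82 on the other Htt25Q arrays. YOR387C and VEL1, both zinc-shortage genes, read 5.78 and 4.65 there, against 2.04 to 2.53 on the other Htt25Q arrays. Other genes of the same lists were low there, with IZH3, an IZH family member, at 7.68, against 9.45 and 9.57, and PST1 at 8.55, against 9.43 and 10.03. Over the 8 probe sets of other zinc handling genes it was above both other arrays on 2 and below both on 4, and over the 23 of further Zap1 targets above on 11 and below on 9. Such positions were not counted over all probe sets. Whether the counts for the members and these lists are unusual for that array was therefore not tested. ZPS1, YOR387C, VEL1, IZH3 and PST1 were singled out here after their values were seen. This is also the array with the unequal actin controls, and the part of RNA quality in these values was not tested.

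Several probe sets outside the members followed probe set 5258_at of ZRT1 from array to array. The likeness was measured as Pearson's r with 5258_at over the 9 ume1, Htt103Q and Htt25Q arrays, which share strain background and processing, and it is given as a description. The 3 named probe sets most like it were those of PAN6 (r = 0.93), which makes pantothenate, FRE3 (0.88), a reductase of iron siderophores, and FET3 (0.86), the ferroxidase of high-affinity iron uptake. ZRT3 ranked highest of the other members, at 7 of 9275 (r = 0.85). IZH1 (0.23), IZH2 (0.23) and IZH4 (0.36) ranked between 2127 and 3101. The other ZRT1 probe sets followed 5258_at less closely than ZRT3 did. Their r was 0.71 for 2253_s_at (rank 84), 0.38 for 2252_g_at (rank 1992) and −0.61 for 2251_at (rank 8902). Without the 2 arrays farthest from the median of ZRT1, Htt103Q replicate 2 and Htt25Q replicate 1, r was 0.88 for PAN6, 0.87 for FRE3, 0.87 for FET3 and 0.83 for ZRT3. Over all 15 arrays, each set centred on its own mean, FET3 ranked 2 and FRE3 4, whereas PAN6 ranked 1760.

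FET3 was picked for its likeness to ZRT1 over these same arrays, so a shared order of the arrays follows from that choice. Its values are given as a description. Its log2 signal was 11.71, 12.30 and 11.73 in the ume1 arrays, 12.51, 11.50 and 12.22 in the Htt103Q arrays and 12.63, 11.50 and 11.27 in the Htt25Q arrays. As with ZRT1, replicate 2 was the low array of the Htt103Q group and replicate 1 the high array of the Htt25Q group. FTR1, the permease partner of FET3, read 10.24 on Htt103Q replicate 2, against 11.69 and 11.35 on the other Htt103Q arrays. FET3 and FTR1 belong to a list of 9 regulators and targets that share members with the zinc regulon. Over its 9 probe sets Htt25Q replicate 1 was above both other Htt25Q arrays on 3 and below both on 5. The iron-related genes SMF3 (8.44, against 8.91 and 8.67) and AFT1 (6.08, against 7.65 and 7.31) were among the 5.

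**Figure D4:**
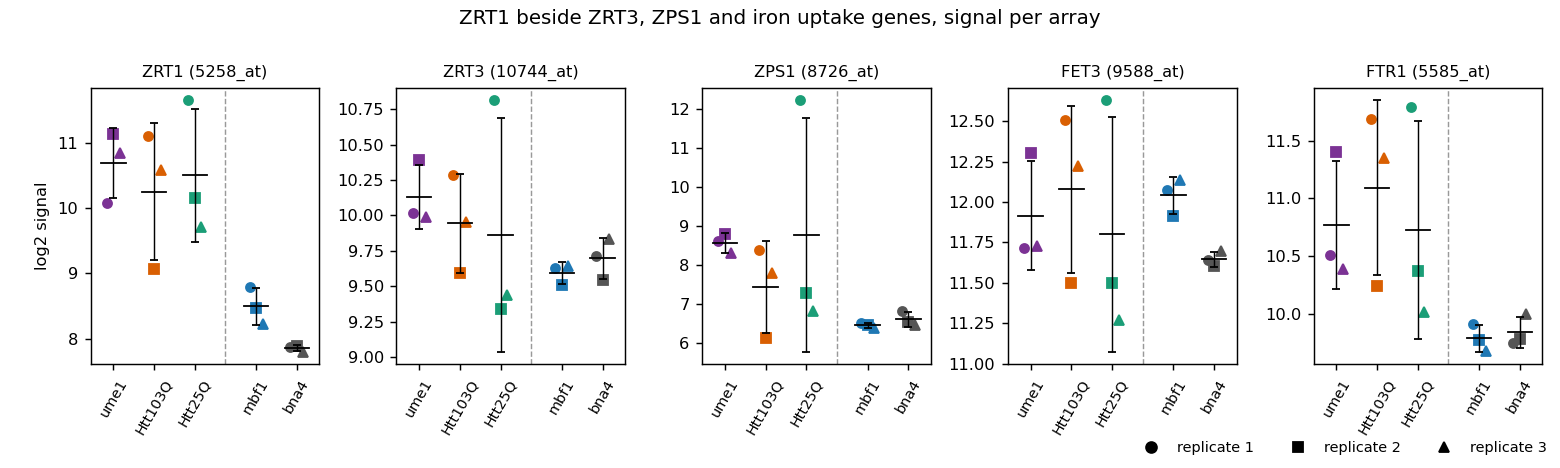
Log2 signal (vertical axis, quantile normalized) of ZRT1 (5258_at), ZRT3, ZPS1, FET3 and FTR1 by group (horizontal axis), with arrays as points, means as lines and SD as bars (n = 3). Htt25Q replicate 1 is the highest Htt25Q array and Htt103Q replicate 2 the lowest Htt103Q array in all 5 panels. The panels show selected genes, FET3 among them for its likeness to ZRT1, and do not test that likeness.

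Among 8 other genes of zinc handling, YKE4 and PHO84 gave most of the calls. Of the 8 probe sets, 1 was called higher and 1 lower in Htt103Q against Htt25Q cells (2.06% and 2.38% of all). The counts were 0 and 1 in ume1 against Htt103Q (1.60% and 1.00%) and 2 and 1 in ume1 against Htt25Q cells (4.18% and 3.68%). In mbf1 against bna4 cells they were 0 and 1 (5.74% and 4.81%). YKE4, a zinc transporter of the endoplasmic reticulum, read 8.69, 8.75 and 8.41 in the ume1 arrays, 9.15, 9.14 and 9.05 in the Htt103Q arrays and 7.76, 7.88 and 7.81 in the Htt25Q arrays. None of the 3 groups overlapped: YKE4 was higher in Htt103Q than in Htt25Q cells by 1.297 (SE 0.074, adjusted p = 5.13e-06), lower by 0.50 in ume1 than in Htt103Q cells as a log2 fold change of −0.50 (adjusted p = 0.00526), and higher in ume1 than in Htt25Q cells by 0.80 (adjusted p = 8.34e-05). PHO84, the phosphate importer that also lets zinc in, read 4.45, 5.73 and 5.82 in the mbf1 arrays, against 8.75, 8.90 and 8.59 in the bna4 arrays. PHO84 fell by 3.41 there (SE 0.36, adjusted p = 1.50e-04) and was lower also in Htt103Q (log2 fold change −2.19, adjusted p = 0.00568) and in ume1 (−2.38, adjusted p = 0.00217) than in Htt25Q cells. ZRG8, a zinc-regulated gene, was higher in ume1 than in Htt25Q cells by 0.78 (adjusted p = 0.0187).

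Of 21 further genes that Zap1 activates, 20 were measured, by 23 probe sets. In Htt103Q against Htt25Q cells 3 genes (4 of 23 probe sets, against 2.06% of all) were called higher and 0 lower (2.38% of all): PST1, a cell wall protein gene (log2 fold change 1.94, adjusted p = 0.00235), TKL2, a transketolase gene (1.23 and 1.49 on its 2 called probe sets), and YJL132W (0.83, adjusted p = 0.00176). In ume1 against Htt103Q cells none of the 20 was called by limma (1.60% of all higher and 1.00% lower). At an unadjusted p under 0.05, 1 probe set was higher and 1 lower, where a limma p of 0.048 ranked 1216 of 9275. In ume1 against Htt25Q cells 3 were higher (4 of 23 probe sets, against 4.18% of all), again PST1 (1.87), TKL2 (1.08 and 1.04) and YJL132W (0.77), and 2 were lower (2 of 23, against 3.68%), of which the ethanolamine kinase gene EKI1 had the larger change (−0.83, adjusted p = 0.0209). In mbf1 against bna4 cells 3 of 23 probe sets were higher and 1 lower (5.74% and 4.81% of all). GRE2, a methylglyoxal reductase gene (1.67, adjusted p = 0.00231), CKI1, the choline kinase gene (0.83), and MCD4 of GPI anchor synthesis (0.66) were higher and the repressor gene NRG2 was lower (−1.27, adjusted p = 6.74e-04). ADH1 and ADH3, the zinc-dependent alcohol dehydrogenase genes repressed through Zap1, were called in none of the 4 comparisons by limma, nor at an unadjusted p under 0.05. Without Htt25Q replicate 1, YKE4, PHO84, PST1 and YJL132W stayed called in both comparisons with Htt25Q, as did TKL2 in Htt103Q against Htt25Q cells. In ume1 against Htt25Q cells ZRG8 (0.66, adjusted p = 0.0481) and EKI1 (−0.65, adjusted p = 0.0444) stayed called, while the TKL2 probe set at 1.04 (then 0.96, adjusted p = 0.0653) and the other lower gene, NRG2 (−0.63, adjusted p = 0.0674), were lost. GRE2 was also called without that array, lower by a log2 fold change of −0.97 in Htt103Q and of −0.81 in ume1 cells. Of 9 regulators and targets that share members with the zinc regulon, the mbf1 and bna4 comparison alone gave calls. There 2 of 9 probe sets were lower and 0 higher, against 4.81% and 5.74% of all. They were the iron regulator gene AFT2 (−0.93, adjusted p = 0.0116) and the fatty acid desaturase gene OLE1 (−0.75, adjusted p = 0.0230). OLE1 is a target of Mga2 like IZH4. MGA2 itself was at −0.18 in mbf1 against bna4 cells (limma adjusted p = 0.847). OLE1 was at 0.37 in ume1 against Htt103Q cells (limma adjusted p = 0.421), where IZH4 was called higher. Any part of Mga2 in these values was not tested.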

How the data were processed

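RNA of 15 arrays in 5 groups was analysed. The authors deposited 1 log2 value per probe set and array, while how the arrays were background corrected, summarised and scaled is not stated in the sources used here. Of 9335 probe sets, 60 controls were set aside and 9275 were quantile normalized over the 15 arrays, so a difference is one relative to the rest of the array (array median 6.56 afterwards). Gene names came from the platform annotation, with 6504 probe sets matching 1 symbol, 328 several and 2443 none, and current names and neighbours from the RefSeq table of assembly R64. Levels of different probe sets are not comparable.

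limma 3.58.1 in R 4.3.3 fitted 1 model with 5 group means, with eBayes and two-sided tests. Benjamini-Hochberg adjustment was over all probe sets within a comparison, and a probe set was called under 0.05. The groups shared 1 estimate of the spread per probe set, although their spreads were unequal. The median SD over all probe sets was 0.25 in Htt25Q, 0.18 in ume1, 0.14 in mbf1, 0.13 in Htt103Q and 0.086 in bna4 arrays. Precision is limited by the number of arrays, and an exact permutation test of 3 against 3 arrays could not go below p = 0.1. In simulated data for Htt103Q against Htt25Q, 200 of 9275 probe sets, all with a mean log2 signal above 5, were changed. The fit recovered 61% of those changed by 1 log2 unit and 92% of those changed by 2, and 3.16% of its calls were false. The simulated noise was independent, with the same SD in every group. These rates may therefore not hold for groups of unequal spread, an outlying array or dim probe sets. Residuals of arrays with the same replicate number correlated at −0.17 to 0.43. Arrays with unlike numbers were not compared, so whether the numbers pair the arrays is not settled. The main fit used no pairing.

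The members and lists were chosen with earlier results of these data known. Beside all members, the text names from each list the called genes, up to the 4 with the largest change per comparison, the 3 genes most like ZRT1, and the deleted genes. Alternatives were deposited values, each processing set alone, only the groups compared, a filter on dim probe sets, a trended robust fit, array weights, a replicate block, and leaving out arrays. A planned count of Zap1 sites in promoters was not run.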

Additional observations from a re-analysis of the deposited data

How the results depend on the processing

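Of the 14 probe sets, 2 were called in Htt103Q against Htt25Q, 3 in ume1 against Htt103Q, 3 in ume1 against Htt25Q and 4 in mbf1 against bna4. With the first processing set fitted alone, renormalized or as deposited, the count was 1 in Htt103Q against Htt25Q and 1 in ume1 against Htt25Q. With only the groups compared in the fit it was 0 in each by limma. At an unadjusted p under 0.05 those fits gave 3 and 5, a count not made over all probe sets. All these fits had fewer arrays to estimate the spread. Calls over all 9275 probe sets moved likewise. The 412 in Htt103Q against Htt25Q became 127 or 134 with the set alone and 32 with only those groups. The 729 in ume1 against Htt25Q became 243 or 252 and 75, and the 241 in ume1 against Htt103Q became 56 or 46 and 121. In mbf1 against bna4, also with fewer arrays, the 978 rose to 1269 with the set alone and 1242 with only those groups. The cause of these shifts was not tested. Array weights (gene-by-gene estimate) gave 5, 8, 5 and 7 in the order above, while all calls became 1148, 1443, 1299 and 2724, beside 412, 241, 729 and 978. With the replicate block the counts were 1, 2, 2 and 4. Without both Htt25Q replicate 1 and ume1 replicate 1 the ume1 against Htt25Q count was 5 (794 over all). Leaving out 1 array at a time gave 1 to 3, 2 to 3, 1 to 4 and 2 to 3.

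IZH1 and IZH4 in ume1 against Htt103Q, and in mbf1 against bna4, stayed called in 15 of 15 alternatives. IZH1 in Htt103Q against Htt25Q and IZH4 in ume1 against Htt25Q were called in 14 of 15, the exception being the fit of only those groups, and IZH2 in mbf1 against bna4 in 14 of 15, lost without mbf1 replicate 1. The calls near the threshold were less steady: IZH2 in Htt103Q against Htt25Q passed in 5 of 15, and IZH2 in ume1 against Htt25Q in 5 of 15. FET4 in ume1 against Htt103Q passed in 6 of 15, and 2252_g_at of ZRT1 in 6 of 15 in both of its comparisons. No called value changed its sign. The causes of the lost calls were not tested. FET4, 2251_at of ZRT1 and 2247_at of ADH4 lie near the lowest signal, which limits their fold changes.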
